A study of Mus musculus with 28 samples.

Results

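Nucleotide excision repair removes the bulky DNA lesions that ultraviolet B light (UVB) makes, and 42 genes of this pathway were followed through bulk RNA-seq of mouse skin. The genes were chosen by name, as the known factors of damage recognition, the transcription and repair complex TFIIH, incision, gap filling and ligation, by a rule that names genes and sets no threshold on measured values, although earlier results of these data were known. All 42 were found once in each of the 2 count tables, of 55573 genes in the whole-body table and 57126 in the keratinocyte table. All 42 passed the filter on low counts in both experiments, and the lowest count of any member in any library was 17, for Rfc4.

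The study deleted Vsir, which encodes VISTA, an inhibitory receptor of immune cells, and exposed part of each genotype to UVB. In the whole-body experiment, wild-type mice (WT) were set beside Vsir-/- mice (KO), which lack the gene in every cell, with 3 libraries in each of 4 groups. In the keratinocyte experiment, Vsirfl/fl mice (FL, with genotype label Vsirfl and no Cre recombinase named) were set beside K14creVsirfl/fl mice (cKO), whose Cre is driven by the keratin 14 promoter of keratinocytes, with 4 libraries in each of 4 groups. Other skin cells of the cKO mice keep Vsir, and the FL controls carry the floxed allele. All mice were 12-week-old females, and their hair was taken off 5 days before the exposure. The exposed groups (UV) received 500 mJ/cm² of UVB and the others (NoUV) received none. The sample titles give 3 h between exposure and harvest and the treatment protocol gives 1 day, so the time point of every UV value below carries both readings. The samples are labelled as separate biological replicates, and each p-value measures the spread between them.

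In this pathway, helix-distorting lesions are found either by XPC and the DDB1-DDB2 ubiquitin ligase, which survey the whole genome, or by a stalled RNA polymerase II that recruits ERCC6, ERCC8 and UVSSA. TFIIH then opens the helix, XPA and replication protein A (RPA) check and hold the strands, ERCC1-ERCC4 and ERCC5 cut on either side, and the clamp loader, polymerases delta or epsilon and a ligase restore the strand. In skin this pathway is the main defence against pyrimidine dimers, and inherited loss of its factors causes xeroderma pigmentosum. Polh encodes polymerase eta, which is lost in the variant form of that disease and copies past a dimer left in place.

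Whole-body libraries held 30.47 to 43.84 M counts and keratinocyte libraries 7.12 to 31.14 M, where FL_NoUV replicate 1 and cKO_UV replicate 3 (7.51 M) were the shallow libraries. Vsir was at 5.07 to 6.87 CPM (the count scaled to a common library size) in KO_NoUV against 34.5 to 46.1 CPM in WT_NoUV, whereas cKO and FL did not differ for Vsir (log2 fold change 0.41 ± 0.32 SE without UV, adjusted p = 0.923, edgeR quasi-likelihood test), and counts per gene do not resolve the floxed exons. Basal keratinocyte markers were present in every library, at a summed 5063 to 13416 CPM for 10 genes, beside a summed 9885 to 66110 CPM for 10 skeletal muscle genes, so the samples hold more than the epidermis named in the title of the series. In bulk skin, fewer cells of a type and less RNA per cell cannot be told apart. WT_NoUV replicate 1 and WT_UV replicate 2 stood apart from their groups in GC-rich members, and genotype results are also given without them.

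Within the pathway, levels per exon length spanned a wide range. In WT_NoUV the highest mean level was that of Ddb1, the adaptor of the CUL4 ubiquitin ligases, at 48.7 ± 5.43 RPKM (CPM per kilobase of exon, SD, n = 3). Rad23b, the stabilising partner of XPC, followed at 40.5 RPKM. Xpc itself was at 3.18 RPKM and Ddb2 at 3.63 RPKM, so the lesion-binding subunits were an order below the partners that they share with other complexes. Ercc8 was the lowest member in WT_NoUV at 0.95 RPKM, and Pole and Pold1, the catalytic subunits of polymerases epsilon and delta, were at 1.56 and 1.99 RPKM. Among the endonucleases, Ercc5 stood at 6.50 RPKM, Ercc1 at 3.95 and Ercc4 at 2.22 RPKM. The keratinocyte experiment had the same pair on top, with Ddb1 at 50.4 and Rad23b at 38.7 RPKM in FL_NoUV, and Ercc8 was again lowest at 1.09 RPKM.

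In the main edgeR fit, a minority of the 42 genes differed between UV and NoUV skin, at or below the share of all genes that differed. Called here means an adjusted p under 0.05 over all genes tested. In WT skin, 5 members were called (11.9%) beside 18.7% of all 20365 genes tested, 2 of them higher (8.91% of all genes) and 3 lower (9.84%). In KO skin, 9 were called (21.4%) beside 22.4%, 3 higher (11.3%) and 6 lower (11.1%). In FL skin, 3 were called (7.14%) beside 7.62% of all 19718 genes tested, 0 higher (3.52%) and 3 lower (4.09%). In cKO skin, 2 were called (4.76%) beside 9.72%, 1 higher (4.57%) and 1 lower (5.15%). With the replicate number as a block in the fit (the replicate block), 4 were called. The share of all genes that the blocked fit called is not given here, so this 4 is not set against it. Counted by groups that do not overlap, 4 members were higher and 8 lower in WT after UV (14.5% and 14.8% of all genes), and 7 and 13 in KO (25.3% and 25.4%). The same counts were 2 and 4 in FL (6.67% and 7.79%) and 1 and 3 in cKO (8.59% and 9.05%). The median log2 fold change of the members was -0.11, -0.11, -0.13 and -0.20 in WT, KO, FL and cKO, beside -0.01, 0.02, 0.01 and 0.01 for all genes tested. Without the 2 outlying WT libraries, a choice made after seeing the data, 24 members were below 0 in WT, against 28 with them. The 4 comparisons use different libraries, and 24 of the 42 members were below 0 in all 4 while 7 were above 0 in all 4, with no test of these counts. Called members numbered 11 in all: Xpc, Ddb2, Cul4b, Uvssa, Ercc3, Cdk7, Mnat1, Ercc5, Rfc1, Pold3 and Polh.

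**Figure D1:**
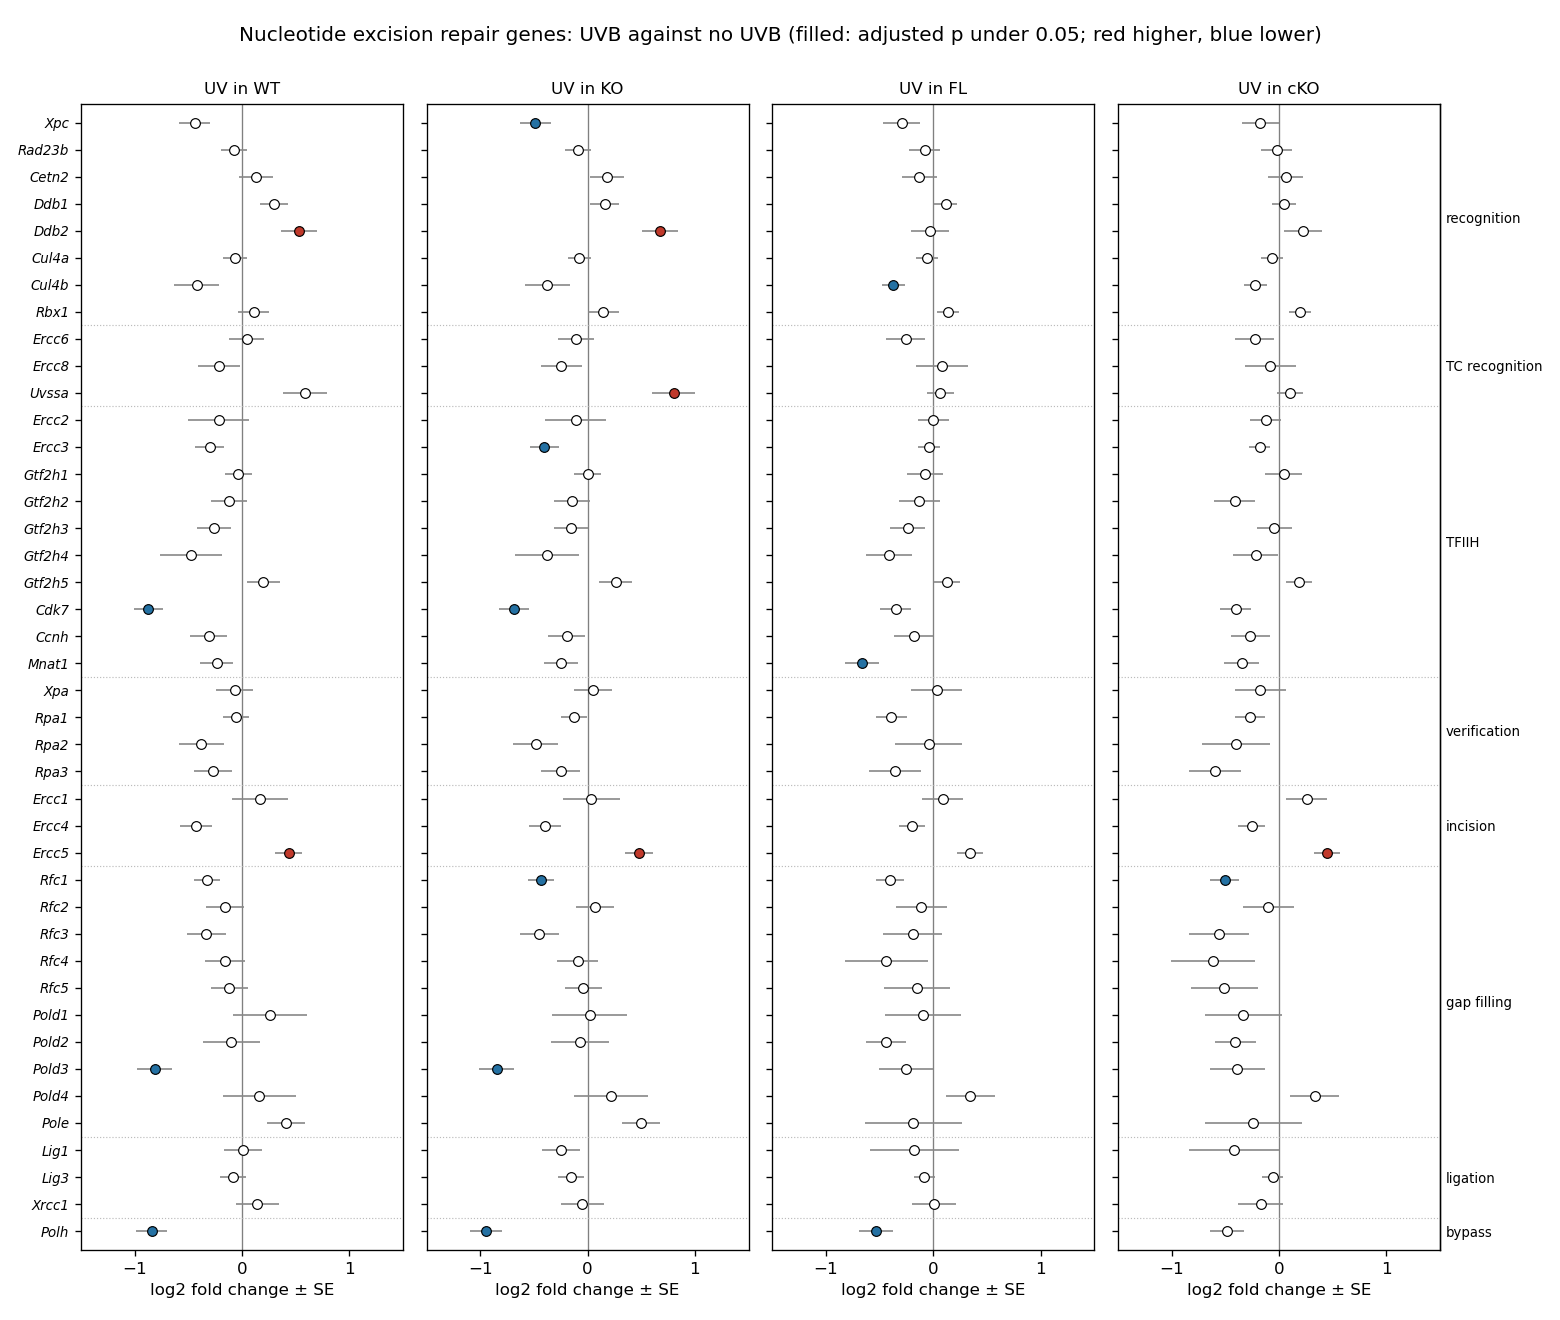
Log2 fold change of each of the 42 genes after UVB (x axis, error bars SE) in WT, KO, FL and cKO skin, with genes on the y axis in order of their role in repair; filled points passed the test (red higher, blue lower). Polh, Cdk7 and Pold3 lie furthest left in WT and KO, Ercc5 lies to the right of 0 in all 4 panels, and Ddb2 and Uvssa lie further right in WT and KO than in FL. The difference between WT and FL did not pass the test, and KO was not tested against FL.

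UV and NoUV skin of the whole-body experiment differed in genes that mark body position. Hoxc10, a gene of posterior skin, was at 0 to 0.0579 CPM in all 6 NoUV libraries and at 4.63 to 7.74 CPM in all 6 UV libraries. Of 15 Hox genes tested, 5 rose in WT and 7 rose in KO after UV, and none fell. In the keratinocyte experiment Hoxc10 ranged from 0 to 4.98 CPM within FL, and 2 of the 15 genes fell in cKO after UV. The mean log2 CPM of these genes was 2.12, 3.33, 3.28 and 3.49 in cKO_NoUV and 2.26 to 2.42 in cKO_UV. It was 2.28 to 3.44 in FL_NoUV and 2.25 to 3.37 in FL_UV. UVB and the site of the skin therefore cannot be told apart in the whole-body UV comparisons. In the keratinocyte experiment these genes were uneven between libraries, and UVB or genotype cannot be fully parted from site in cKO after UV.

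Polh was called lower in 3 of the 4 UV comparisons, and no other falling member in more than 2. It lies at chr17:46171355-46202645 (GRCm38, minus strand). Its levels were 31.6, 31.3 and 30.6 CPM in WT_NoUV and 18.6, 15.9 and 17.8 CPM in WT_UV. In KO they were 29.7, 30.9 and 27.6 CPM without UV and 13.5, 14.4 and 17.8 CPM after it. No UV library of either genotype reached its NoUV group, and the spread within each group was small beside the gap between them. The log2 fold change was -0.84 ± 0.15 in WT (SE, adjusted p = 0.00213, edgeR) and -0.95 ± 0.15 in KO (adjusted p = 0.000847). FL levels were 40.2, 37.1, 29.9 and 37.2 CPM without UV and 28.9, 23.2, 22.8 and 24.4 CPM after it, with a log2 fold change of -0.54 ± 0.16 (adjusted p = 0.0475), and again the groups did not overlap. In cKO the levels were 38.0, 31.1, 30.3 and 24.2 CPM against 26.7, 17.7, 21.3 and 22.4 CPM, which overlap, and the change of -0.49 ± 0.16 missed the threshold (adjusted p = 0.0615) and passed with the replicate number as a block (adjusted p = 0.0238). The FL call was lost in 10 of 16 fits that each left out 1 library (adjusted p 0.056 to 0.113), namely FL_NoUV replicates 1, 2 and 4, FL_UV replicates 2, 3 and 4, cKO_NoUV replicates 2 and 3, and cKO_UV replicates 3 and 4. Conversely the cKO change passed without cKO_NoUV replicate 4 (adjusted p = 0.0385) or cKO_UV replicate 1 (0.0438), and came just under the threshold without FL_NoUV replicate 1. DESeq2 called the cKO change as well (adjusted p = 0.0405).

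Among TFIIH genes, the kinase gene Cdk7 fell with Polh. CDK7 with cyclin H (Ccnh) and the assembly factor MAT1 (Mnat1) forms the kinase module of TFIIH, which acts in transcription and leaves the complex during repair. Cdk7 (chr13:100702631-100730939, minus strand) was at 29.5, 34 and 29.0 CPM in WT_NoUV and at 18.7, 15.2 and 16.6 CPM in WT_UV. In KO its levels were 28.3, 29.4 and 30.1 CPM without UV and 17.9, 18.8 and 17.9 CPM after it. The groups were far apart in both genotypes, with log2 fold changes of -0.87 ± 0.14 in WT (adjusted p = 0.00124, edgeR) and -0.69 ± 0.14 in KO (adjusted p = 0.0035). FL levels were 45.2, 32.8, 28.2 and 30.7 CPM without UV and 28.4, 26.8, 24.6 and 27.2 CPM after it. In cKO they were 37.9, 28.4, 30.1 and 31.1 CPM against 25.8, 21.7, 24.3 and 24.6 CPM. These smaller differences of -0.35 ± 0.14 and -0.40 ± 0.14 did not pass (adjusted p = 0.157 and 0.0863), although the cKO groups did not overlap and the cKO change passed without FL_NoUV replicate 1 (adjusted p = 0.026) and with the replicate block (adjusted p = 0.037).

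The other module genes moved less evenly. Mnat1 fell in FL, from 13.7, 9.84, 10.8 and 10.2 CPM to 6.14, 6.86, 7.43 and 7.58 CPM, a log2 fold change of -0.66 ± 0.16 (adjusted p = 0.0183, edgeR) with no overlap. That call was lost without FL_UV replicate 1 (adjusted p = 0.0584). In cKO, WT and KO the Mnat1 values of -0.35, -0.23 and -0.25 did not pass. Ccnh was below 0 in all 4 comparisons, between -0.31 and -0.18, and was called in none. Of the core subunits, Ercc3, the helicase-like translocase XPB, fell in KO from 29.7, 28.6 and 28.9 CPM to 23.6, 20.6 and 21.7 CPM (log2 fold change -0.40 ± 0.13, adjusted p = 0.0459). Leaving out any 1 of the 6 KO libraries ended that call (adjusted p 0.0584 to 0.125), as did the replicate block (adjusted p = 0.0515). WT levels of Ercc3 were 37.1, 30.1 and 30.4 CPM against 27.0, 27.4 and 24.9 CPM, with -0.30 ± 0.13 and adjusted p = 0.143. Ercc2, the XPD helicase, and Gtf2h1 to Gtf2h5 were called in no UV comparison. Of the 10 TFIIH genes, 1, 2, 1 and 0 fell in WT, KO, FL and cKO, and none rose, beside 9.84%, 11.1%, 4.09% and 5.15% of all genes called lower.

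Promoter stretches are shown for the falling genes Polh, Cdk7 and Pold3 and for the rising gene Ercc5, as the 3 members with the largest falls in both WT and KO and the only member called higher in 3 comparisons, a choice made after their values were seen. They come from RefSeq, GRCm38.p6, as the bases within 250 upstream of the start that lie in no annotated exon, written 5′ to 3′ on the strand of the gene. Capitals mark motif matches on either strand: the NRF1 site by its name, CACGTG (E-box), CCGGAAG (ETS site), TGANTCA (AP-1 site), GGGCGG (GC box) and CCAAT. The Polh stretch is chr17:46202646-46202781 (minus strand), that of Pold3 chr7:100121566-100121752 (minus strand), that of Cdk7 chr13:100730943-100731192 (minus strand) and that of Ercc5 chr1:44147494-44147743 (plus strand).
Polh: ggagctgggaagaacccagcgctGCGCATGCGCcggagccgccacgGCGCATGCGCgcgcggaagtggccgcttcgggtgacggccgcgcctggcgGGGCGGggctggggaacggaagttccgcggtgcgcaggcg
Pold3: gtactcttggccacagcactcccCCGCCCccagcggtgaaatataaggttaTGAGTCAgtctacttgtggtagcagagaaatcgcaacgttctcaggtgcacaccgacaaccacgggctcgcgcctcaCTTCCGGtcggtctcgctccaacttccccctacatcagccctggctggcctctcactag
Cdk7: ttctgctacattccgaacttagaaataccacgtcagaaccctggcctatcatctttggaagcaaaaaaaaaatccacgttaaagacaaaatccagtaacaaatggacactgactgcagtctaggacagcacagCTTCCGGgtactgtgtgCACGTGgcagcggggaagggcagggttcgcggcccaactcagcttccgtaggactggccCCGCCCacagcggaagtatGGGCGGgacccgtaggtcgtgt
Ercc5: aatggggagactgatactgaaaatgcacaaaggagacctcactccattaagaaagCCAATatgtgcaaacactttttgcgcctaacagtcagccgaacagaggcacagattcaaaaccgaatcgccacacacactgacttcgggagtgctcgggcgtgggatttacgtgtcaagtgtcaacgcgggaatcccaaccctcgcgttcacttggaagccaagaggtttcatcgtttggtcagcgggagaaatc

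Polh carries NRF1 matches 117 and 94 bases before its start, and a further one that runs past the end of the printed stretch into exon bases and is not in capitals. Cdk7 carries an E-box at 100 and an ETS match at 117 bases before its start. The 3 falling genes share no motif of the set in the printed stretches beyond the GC box. Of the 42 members, 36 had a promoter in the table, and Xpc, Ddb2, Ercc3, Ccnh, Rfc2 and Pole had no entry. Over the 250 upstream bases, GC boxes were found in 24 of the 36 genes and in 32.7% of all 32851 promoters. Members are counted here by gene, where any promoter of the gene matched, and the share of all is by promoter. The 36 genes had 40 promoters, of which 25 held a GC box and 9 an E-box. CCAAT was found in 18 of the 36 and in 33.8% of all. E-boxes were found in 8 of the 36 (6.02% of all), ETS matches in 8 (6.91%) and NRF1 matches in 7 (3.74%). The p53 half-site was found in Cetn2 alone (7.13% of all), TGANTCA in Gtf2h4, Mnat1 and Pold3 (6.75%), TATAAA in Pold2 (12.4%), and TGACGTCA in none (1.55%). Matches are letters in these windows and were not tested for binding.

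In damage recognition, Ddb2 rose and Xpc fell in the whole-body experiment. DDB2 binds pyrimidine dimers directly and hands them to XPC. Ddb2 was at 8.94, 10.2 and 10.6 CPM in WT_NoUV and at 15.3, 15.7 and 12.0 CPM in WT_UV. KO levels were 10.1, 10.5 and 9.81 CPM without UV and 14.1, 15.4 and 18.9 CPM after it. Every UV library lay above every NoUV library of its genotype, with log2 fold changes of 0.53 ± 0.17 in WT (adjusted p = 0.0456, edgeR) and 0.68 ± 0.17 in KO (adjusted p = 0.013). FL levels were 12.3, 8.95, 12.9 and 9.49 CPM against 8.36, 12.1, 10.7 and 11.3 CPM, and cKO levels were 8.04, 11.2, 10.8 and 12.9 CPM against 12.9, 12.2, 12.1 and 13 CPM. Those groups overlapped, with log2 differences of -0.04 ± 0.18 and 0.23 ± 0.18 (adjusted p = 0.93 and 0.458). The WT call of Ddb2 was kept without WT_UV replicate 3 or KO_UV replicate 3 and lost without any other of the 12 libraries (adjusted p 0.0599 to 0.128) and without both outlying WT libraries (adjusted p = 0.15). The KO call was lost without KO_NoUV replicate 1 or 3 or KO_UV replicate 3 (adjusted p 0.0531 to 0.0698), and 23.8% of the exon bases of Ddb2 overlap Acp2 on the other strand.

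Xpc was at 18, 16.3 and 18 CPM in WT_NoUV and at 13.2, 12.8 and 12.7 CPM in WT_UV. In KO it was at 17.8, 17.5 and 15 CPM without UV and at 11.1, 13.1 and 11.7 CPM after it. Groups were apart in both genotypes, but only the KO change passed (log2 fold change -0.49 ± 0.15, adjusted p = 0.0285, edgeR), with -0.44 ± 0.15 in WT (adjusted p = 0.0511). DESeq2 called the WT change (adjusted p = 0.0113). The KO call was lost without KO_NoUV replicate 1 or 2 or KO_UV replicate 1 or 3 (adjusted p 0.0874 to 0.104). FL levels were 8.64, 13.3, 13.9 and 14.4 CPM against 10.7, 9.53, 10.7 and 10.3 CPM, and cKO levels were 12.1, 13.7, 12.2 and 17.1 CPM against 11.5, 10.8, 12.8 and 13.8 CPM. These overlapped, with differences of -0.29 and -0.18 that did not pass.

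Ddb1 was called nowhere. Its levels were 352, 293 and 291 CPM in WT_NoUV and 351, 420.4 and 379 CPM in WT_UV, which overlap. KO levels were 258, 269 and 251 CPM without UV and 320.3, 266 and 281 CPM after it. FL levels were 279, 346, 310.0 and 356 CPM against 361, 332, 373 and 331 CPM, and cKO levels were 313, 287, 336 and 286 CPM against 305, 313, 351 and 294 CPM. The differences ranged from 0.05 to 0.30, the largest in WT with adjusted p = 0.141 (edgeR).

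Cul4b, one of the pair of cullins that scaffold the DDB1 ligases, fell in FL, from 77.9, 73.9, 71.0 and 70.7 CPM to 63.9, 52.8, 59.8 and 50.2 CPM (log2 fold change -0.37 ± 0.11, adjusted p = 0.0475, edgeR) with no overlap. The call was kept without FL_UV replicate 1, cKO_NoUV replicate 1, or cKO_UV replicate 2 or 3, and lost without any other of the 16 libraries (adjusted p 0.0537 to 0.134). Its values of -0.42, -0.37 and -0.22 in WT, KO and cKO were of like size and did not pass. The paralog Cul4a stayed between -0.08 and -0.06 in all 4 comparisons. Rad23b, Cetn2 and the RING subunit gene Rbx1 were within 0.20 of 0 in all 4 and were called in none.

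Of the transcription-coupled factors, Uvssa rose. UVSSA brings TFIIH to the stalled polymerase and stabilises ERCC6. Uvssa (chr5:33378549-33419754, plus strand) was at 29.9, 26.6 and 35.9 CPM in KO_NoUV and at 45.4, 50.3 and 65.1 CPM in KO_UV. WT levels were 19.1, 27.0 and 32.3 CPM without UV and 39.3, 35.8 and 42.7 CPM after it. The groups did not overlap in either genotype, with log2 fold changes of 0.80 ± 0.20 in KO (adjusted p = 0.0128, edgeR) and 0.59 ± 0.20 in WT, where it missed the threshold (adjusted p = 0.058). FL levels of 55.7, 42.5, 49.2 and 47.4 CPM overlapped those of FL_UV, 54.9, 46.1, 47.7 and 54.8 CPM, and cKO levels of 46.0, 37.2, 41.6 and 53.3 CPM overlapped those of cKO_UV, 46.3, 45.6, 51.7 and 48.0 CPM. Leaving out KO_NoUV replicate 1 or 2 or KO_UV replicate 3 ended the KO call (adjusted p 0.0567 to 0.0678), and leaving out WT_NoUV replicate 3 brought the WT change past the threshold (adjusted p = 0.0299). The WT change also passed with the hair follicle covariate (adjusted p = 0.0223) and with DESeq2 (0.0358).

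Ercc6, the ATPase CSB that binds the stalled polymerase, and Ercc8, its ubiquitin ligase partner CSA, were called in no comparison. Ercc6 levels were 24.7, 34.5 and 33.1 CPM in WT_NoUV, 34.5, 33.8 and 26.8 CPM in WT_UV, 31.7, 29.4 and 35.5 CPM in KO_NoUV and 32.4, 30.3 and 26.8 CPM in KO_UV. FL and cKO levels of Ercc6 were 76.1, 57.1, 46.8 and 63.6 CPM in FL_NoUV, 57.1, 45.3, 42.3 and 58.4 CPM in FL_UV, 74.8, 54.6, 46.5 and 47.7 CPM in cKO_NoUV and 52.6, 39.0, 51.2 and 48.1 CPM in cKO_UV. All 4 pairs of groups overlapped, and the differences lay between -0.26 and 0.04.

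Xpa and the RPA subunits showed no called change. Xpa levels were 7.38, 6.09 and 7.94 CPM in WT_NoUV, 7.26, 6.97 and 6.20 CPM in WT_UV, 6.62, 7.11 and 7.73 CPM in KO_NoUV and 6.73, 7.72 and 7.74 CPM in KO_UV. They were 6.51, 3.46, 6.48 and 3.76 CPM in FL_NoUV, 4.90, 4.62, 5.38 and 5.56 CPM in FL_UV, 4.77, 3.61, 4.98 and 5.15 CPM in cKO_NoUV and 4.20, 3.89, 3.15 and 5.06 CPM in cKO_UV. The groups overlapped throughout and the Xpa differences lay between -0.17 and 0.05. Rpa1, Rpa2 and Rpa3, which coat single-stranded DNA, were below 0 in all 4 comparisons, from -0.60 for Rpa3 in cKO to -0.04 for Rpa2 in FL, and none passed.

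Ercc5 was called higher in 3 of the 4 UV comparisons, and no other rising member in more than 2. It encodes XPG, the endonuclease that cuts on the 3′ side of the lesion, and lies at chr1:44147744-44181260 (plus strand). Its levels were 37.0, 40.4 and 37.0 CPM in WT_NoUV and 58.7, 45.4 and 50.4 CPM in WT_UV. KO levels were 41.1, 35.6 and 37.9 CPM against 54.3, 52.2 and 53.5 CPM. All UV libraries lay above all NoUV libraries in both, with log2 fold changes of 0.43 ± 0.13 (adjusted p = 0.0334, edgeR) and 0.48 ± 0.13 (adjusted p = 0.0175). In cKO the levels were 40.1, 40.4, 36.3 and 36 CPM against 63.5, 41.5, 52.1 and 50.8 CPM, a change of 0.44 ± 0.12 (adjusted p = 0.0311). FL levels of 42.2, 36.6, 35.3 and 38.2 CPM and 44.4, 51.0, 51.3 and 45.8 CPM did not overlap either, yet the difference of 0.34 ± 0.12 did not pass (adjusted p = 0.104).

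These modest Ercc5 changes depended on single libraries. The WT call was lost without WT_NoUV replicate 1 or 3, WT_UV replicate 1 or 3, KO_NoUV replicate 2, or KO_UV replicate 1 or 2 (adjusted p 0.0529 to 0.122). The KO call was lost without KO_NoUV replicate 2 or 3 or any 1 of the KO_UV libraries (adjusted p 0.0528 to 0.0889), and the cKO call without cKO_NoUV replicate 2, 3 or 4 or cKO_UV replicate 1, 3 or 4 (adjusted p 0.0562 to 0.0932). Across these fits the log2 fold change of Ercc5 stayed between 0.32 and 0.52. Ercc4, the XPF nuclease that cuts on the 5′ side, was at -0.43 ± 0.15 in WT and -0.40 ± 0.15 in KO without passing (adjusted p = 0.0599 and 0.0705, edgeR). DESeq2 called Ercc4 in both (adjusted p = 0.0203 and 0.0247). Its partner Ercc1 lay between 0.03 and 0.26.

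**Figure D2:**
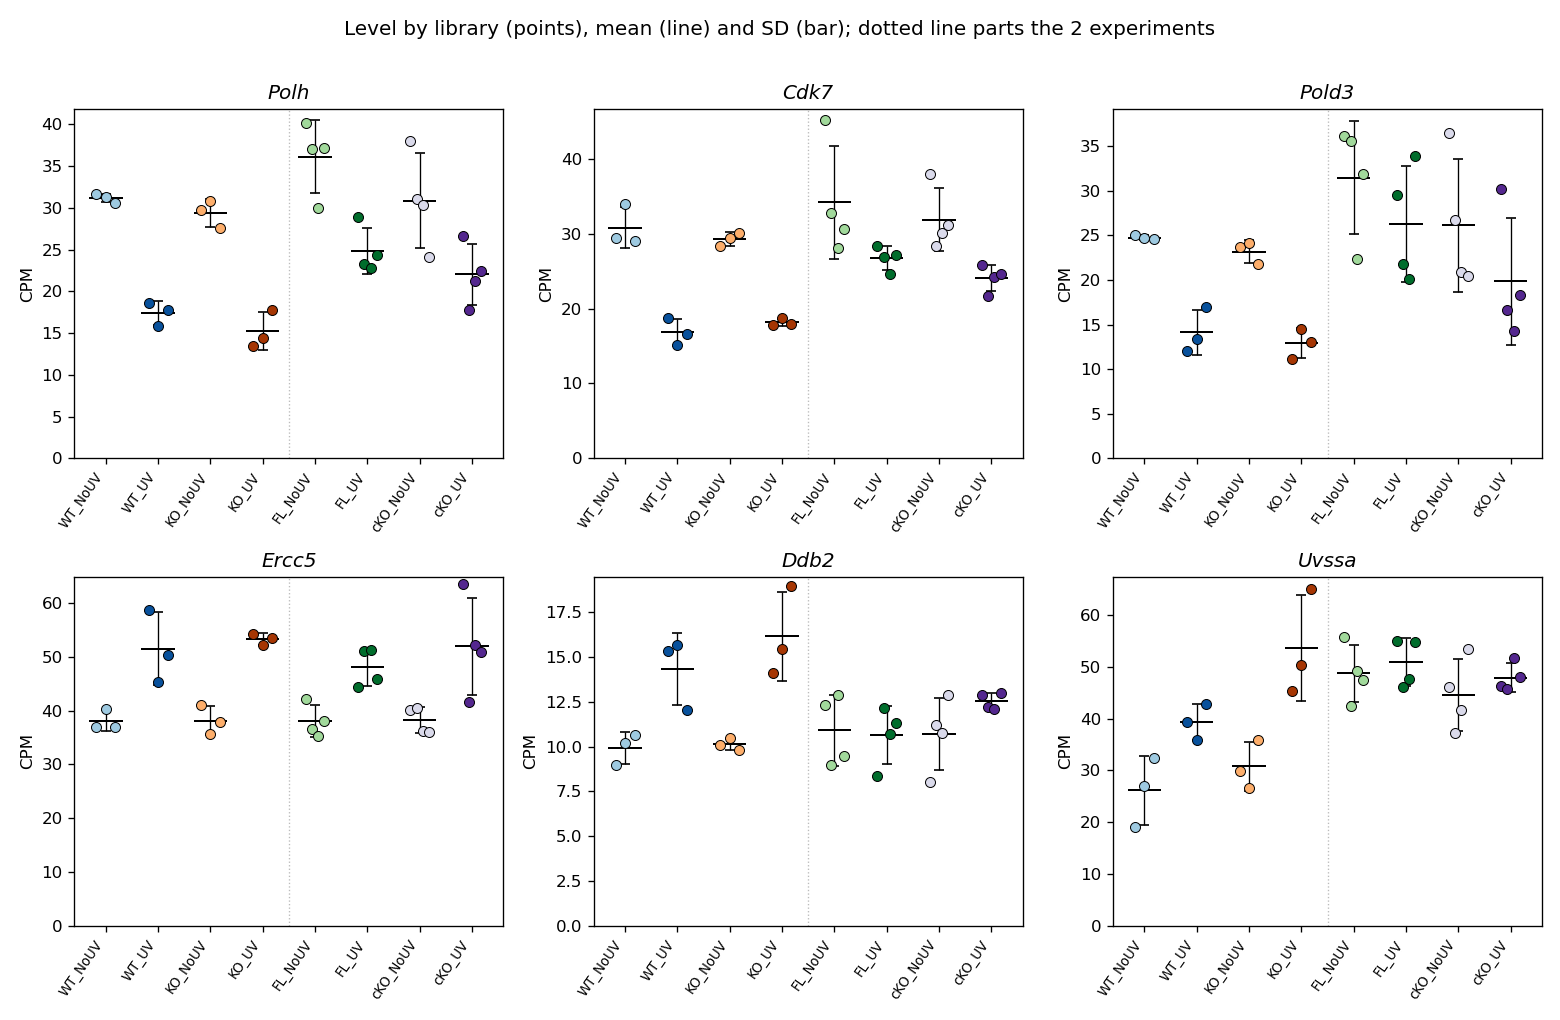
Level of 6 members in CPM (y axis, from 0) in each library of the 8 groups (x axis), with the group mean as a line and the SD as a bar; the dotted line parts the whole-body from the keratinocyte experiment. UV and NoUV points of WT and KO do not overlap for any of the 6 genes, and in FL and cKO those of Ercc5 do not overlap while those of Ddb2, Uvssa and Pold3 do.

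In gap filling, Pold3 and Rfc1 fell. POLD3 is an accessory subunit of polymerase delta that binds the sliding clamp, and also serves polymerase zeta in lesion bypass. Pold3 (chr7:100082111-100121565, minus strand) was at 25.0, 24.7 and 24.5 CPM in WT_NoUV and at 12.0, 13.4 and 16.9 CPM in WT_UV. KO levels were 23.7, 24.2 and 21.7 CPM against 11.2, 14.5 and 13 CPM. The groups did not overlap, with log2 fold changes of -0.81 ± 0.16 in WT (adjusted p = 0.00482, edgeR) and -0.84 ± 0.16 in KO (adjusted p = 0.00301). FL levels ran from 22.4 to 36.1 CPM without UV and from 20.1 to 33.9 CPM after it, and cKO levels from 20.4 to 36.5 and from 14.3 to 30.2 CPM. The keratinocyte groups thus overlapped widely, with differences of -0.25 ± 0.25 and -0.39 ± 0.25 that did not pass.

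Rfc1, the large subunit of the clamp loader, was at 60.1, 65.9 and 64.9 CPM in KO_NoUV and at 45.8, 47.2 and 48.1 CPM in KO_UV, a log2 fold change of -0.44 ± 0.12 (adjusted p = 0.0223, edgeR). cKO levels were 46.8, 45.5, 45.8 and 41.9 CPM against 38.6, 30.5, 31.1 and 26.4 CPM (-0.51 ± 0.13, adjusted p = 0.0255). The groups did not overlap in either. WT levels of 65.5, 67.1 and 71.0 CPM against 61.9, 48.6 and 51.8 CPM, and FL levels of 40.5, 53.4, 45.2 and 58.9 CPM against 39.1, 35.0, 35.6 and 40.3 CPM, did not overlap either, but -0.33 ± 0.12 and -0.40 ± 0.13 missed the threshold (adjusted p = 0.081 and 0.0781). The KO call was lost without KO_NoUV replicate 2 or 3 or KO_UV replicate 1 or 3 (adjusted p 0.0561 to 0.0851), and the cKO call without cKO_NoUV replicate 2 or 3 or cKO_UV replicate 2, 3 or 4 (adjusted p 0.0513 to 0.0917). The WT and FL changes passed without WT_UV replicate 1 (adjusted p = 0.0282) and without FL_NoUV replicate 1 (adjusted p = 0.03). DESeq2 called both (adjusted p = 0.0457 and 0.0447).

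The remaining polymerase, clamp-loader and ligase genes were called in no UV comparison. Pole was at 17.8, 16.4 and 18 CPM in WT_NoUV and 20.7, 22.3 and 26.4 CPM in WT_UV, with 9.47, 10.2 and 10.4 CPM in KO_NoUV and 12.4, 12.1 and 17.8 CPM in KO_UV. Its UV groups lay above in both genotypes, at 0.41 ± 0.18 and 0.50 ± 0.18, without passing (adjusted p = 0.125 and 0.0598, edgeR). The KO change passed without WT_NoUV replicate 1 (adjusted p = 0.0499) and without both outlying WT libraries (0.037). It also passed with only the 2 groups compared (0.0372), with the hair follicle covariate (0.0312) and with DESeq2 (0.0287). Lig1, Lig3 and Xrcc1, of which Lig1 serves dividing cells and Lig3 with XRCC1 also serves resting cells, lay between -0.42 and 0.14.

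The response to UVB was not shown to differ between genotypes for any member. For the UV effect in KO minus that in WT, no member was called beside 0% of all genes, none had an unadjusted p under 0.05 (1.54% of all genes), and DESeq2 called none either. The smallest p belonged to Lig1 (-0.26, 95% interval -0.80 to 0.28) and Cdk7 (0.19, -0.23 to 0.60). For Polh the difference was -0.11 (-0.55 to 0.33). For the UV effect in cKO minus that in FL, no member was called by edgeR or DESeq2 beside 0% of all genes, and none had an unadjusted p under 0.05 (1.26% of all genes). The smallest p belonged to Mnat1 (0.31, -0.17 to 0.79) and Gtf2h2 (-0.28, -0.85 to 0.29). Intervals of this width leave room for differences as large as several of the UV effects themselves.

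The UV effect in WT was also set against that in FL in a joint fit of all 28 libraries. No member was called beside 1.2% of all 21851 genes, and 3 had an unadjusted p under 0.05, beside 13.4% of all genes. These were Cdk7, with a more negative effect in WT by 0.51 ± 0.20 (a difference of -0.51, adjusted p = 0.237, edgeR), Ddb2 at 0.58 ± 0.25 (adjusted p = 0.282) and Uvssa at 0.54 ± 0.23 (adjusted p = 0.295). So the rise of Ddb2 and Uvssa in the whole-body experiment and its absence among calls in the keratinocyte experiment were not shown to differ. KO and cKO were not compared across the experiments. The 2 experiments differ in batch date, in mice and in the Hox genes above, and these cannot be told apart.

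Companion genes gave the setting. Cdkn1a, the p53 target that stops the cell cycle, rose in all 4 genotypes (log2 fold changes 1.06, 0.94, 1.08 and 0.86 in WT, KO, FL and cKO). Of 20 p53 targets, 5, 5, 5 and 6 rose, led by Gadd45a in WT (1.22 ± 0.15) and KO (1.37 ± 0.15) and by Pmaip1 in FL (2.24 ± 0.30) and cKO (2.39 ± 0.30), and 2 fell in WT and 3 in KO, among them Sesn1. Of 34 further repair factors, 3 fell in WT, 2 in KO and 2 in cKO, and 1 rose in each of FL and cKO. Aqr, a helicase linked to transcription-coupled repair, fell in WT (-0.69 ± 0.17), KO (-0.83 ± 0.17) and cKO (-0.55 ± 0.12). Pole4, a small subunit of polymerase epsilon, rose in FL (0.44 ± 0.12) and cKO (0.56 ± 0.12).

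Of 10 further genes of translesion synthesis and damage bypass, none was called in WT or KO, while Hltf and Shprh, ligases that modify the sliding clamp, fell in FL (-0.32 ± 0.09 and -0.40 ± 0.11) and cKO (-0.32 ± 0.09 and -0.42 ± 0.11), beside 4.09% and 5.15% of all genes called lower. Of 15 base excision repair genes, 1, 2, 1 and 2 fell in WT, KO, FL and cKO, and Neil3 rose in KO (0.88 ± 0.30). Smug1, a uracil glycosylase, fell in WT (-0.52 ± 0.16) and KO (-0.54 ± 0.16), and Polb, the gap-filling polymerase of that pathway, fell in FL (-0.37 ± 0.09) and cKO (-0.42 ± 0.09). Of 19 circadian clock genes, 2, 4, 5 and 7 rose and 2, 3, 2 and 2 fell in WT, KO, FL and cKO, with Ciart up in WT (1.48 ± 0.32) and Per1 up in FL (1.82 ± 0.28). Among markers of other cells, 5 of 8 dendritic and Langerhans genes and 5 of the T cell genes fell in KO after UV and 2 and 1 fell in WT, while 4 of 6 neutrophil genes rose in KO and 1 rose in WT. Fibroblast genes rose in KO (4 of 8) and FL (2 of 8), and endothelial genes fell in WT and KO (2 of 8 each). Of 8 mast cell genes, 5 rose in cKO and 1 fell in each of WT and KO. Of 14 genes of the growing hair follicle tested in the whole-body experiment, 1 fell in WT and 3 in KO. Of 23 tested in the keratinocyte experiment none was called, with medians of -0.82 in FL and -4.89 in cKO. Macrophage genes rose in WT (1 of 8) and KO (2 of 8), and no sebaceous gland, suprabasal or erythroid gene was called after UV. Of 10 basal keratinocyte genes, 1, 2, 1 and 1 fell in WT, KO, FL and cKO. Of 10 skeletal muscle genes, 2 rose and 1 fell in WT, 1 rose and 1 fell in KO and 1 rose in cKO, with medians of 0.48, -0.01, 0.94 and 0.98 in WT, KO, FL and cKO. Of 8 adipocyte genes, 1 rose in each of WT, KO and cKO, with medians of 0.57, 0.43, 0.84 and 0.92. In the melanocyte list 1 gene fell in each of WT, KO and cKO, and in the Schwann cell list 1 rose in KO. Of 22 proliferation markers, 6 fell in WT and 4 in KO and none was called in FL or cKO, with medians of -0.47, -0.43, -0.65 and -0.72. The part of these populations in the repair gene changes was not tested. Hour of harvest is not given per library, and its part in the repair gene changes was not tested.

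In KO against WT, the gap-filling genes and Lig1 all lay below 0, and none passed the test. No member was called in KO against WT, beside 0.00982% of all genes without UV and 0.0442% after it. At an unadjusted p under 0.05 there were 7 members without UV and 9 after it, beside 15.8% and 15.1% of all genes. DESeq2 called 3 and 2 members, and the share of all genes that it called is not given here. Groups did not overlap for 10 members without UV, all lower in KO, beside 11.7% of all genes lower and 12.8% higher. After UV they did not overlap for 17 lower members and 1 higher, Uvssa, beside 10.2% and 12%. Without the 2 outlying WT libraries these counts were 13 lower without UV (16.2% of all genes lower, 17% higher), and 19 lower and 1 higher after UV (14% and 15.5%). The 10 gap-filling genes were all below 0 both times, with medians of -0.59 and -0.53, which became -0.33 and -0.43 without the 2 outlying WT libraries, while the medians of all genes were -0.01 and 0.03. The 2 comparisons use different libraries.

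**Figure D3:**
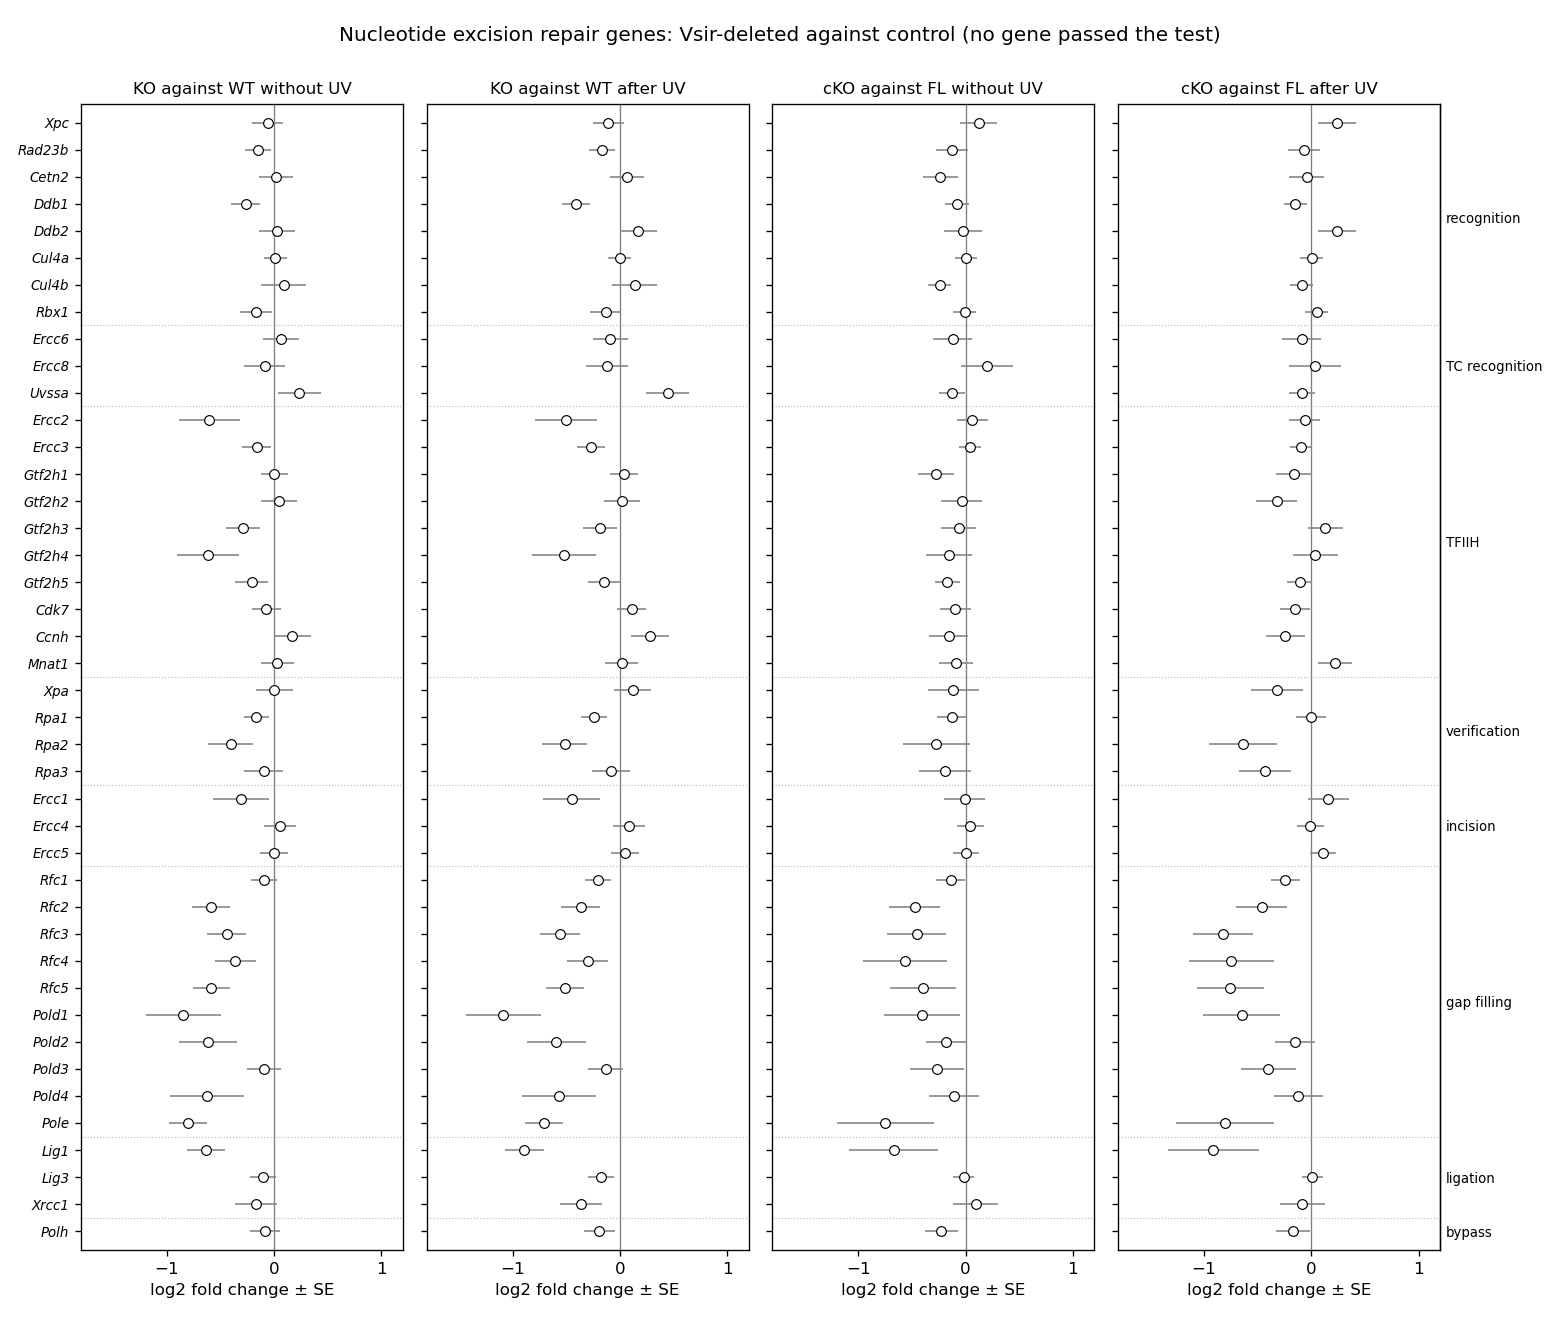
Log2 fold change of each of the 42 genes (x axis, error bars SE) in KO against WT and in cKO against FL, without UV and after it, with genes on the y axis in order of their role; open points did not pass the test. The gap-filling genes and Lig1 lie left of 0 in all 4 panels, while damage recognition genes lie nearer to 0.

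Pole and Lig1 had the smallest p values without UV. Pole, at the levels given above, did not overlap between genotypes and differed by -0.80 ± 0.18 (adjusted p = 0.122, edgeR). After UV the difference was -0.71 ± 0.18 (adjusted p = 0.133), again without overlap. Lig1 was at 32.1, 25.3 and 28.5 CPM in WT_NoUV and 18.5, 19.1 and 17.9 CPM in KO_NoUV, with 24.6, 28.4 and 33.6 CPM in WT_UV and 14.8, 12.8 and 19.1 CPM in KO_UV. KO was lower in every library both times, by -0.63 ± 0.18 (adjusted p = 0.155) and -0.89 ± 0.18 (adjusted p = 0.0733). DESeq2 called Pole, Lig1 and Rfc5 without UV and Pole and Lig1 after UV, and edgeR called Lig1 after UV without WT_NoUV replicate 1 (adjusted p = 0.0353).

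Markers of dividing cells were lower in the same libraries. All 22 proliferation markers had groups without overlap and lower in KO without UV, and 16 of 22 after UV, with medians of -0.86 and -0.80. None of the 22 was called, and all 22 had an unadjusted p under 0.05 both times. Their summed level was 1135 to 1375 CPM in WT_NoUV and 699 to 812 CPM in KO_NoUV, and 763 to 997 CPM in WT_UV and 390 to 701 CPM in KO_UV. Suprabasal keratinocyte genes, 9 tested, were all below 0 as well (medians -0.75 and -0.69), and all 10 skeletal muscle genes were above 0 without UV (median 0.78). The part of these cell populations in the levels of the repair genes was not tested.

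Members outside gap filling and Lig1, a split made after the values were seen, lay closer to 0 in the median. For these 31 genes, which include Rpa1, Rpa2 and Rpa3, the median was -0.09 without UV and -0.11 after it. It was -0.59 and -0.56 for the 11 genes made up of gap filling and Lig1. Without the 2 outlying WT libraries the medians were -0.05 and -0.12 for the 31 and -0.34 and -0.46 for the 11. Of the 31, 3 did not overlap and were lower in KO without UV (11.7% of all genes lower) and 9 after UV (10.2%). After UV 1 of the 31, Uvssa, did not overlap and was higher (12% of all genes higher). At an unadjusted p under 0.05 there were 0 of the 31 without UV and 3 after it, beside 15.8% and 15.1% of all genes. Gtf2h4, a core subunit of TFIIH, differed by -0.62 and -0.52 (-0.21 and -0.31 without those libraries), and Rpa2 by -0.41 and -0.51 (-0.24 and -0.63). Polh differed by -0.09 and -0.19, Xpc by -0.06 and -0.11, Xpa by 0.00 and 0.12, Ercc6 by 0.07 and -0.09, and Ddb2 by 0.03 and 0.17, and the groups overlapped in each. Ddb1 was lower in KO in every library, by -0.27 ± 0.13 and -0.41 ± 0.13, without passing (adjusted p = 0.349 and 0.235, edgeR).

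The 2 WT libraries named at the outset bear on part of this. Pold4, Pold1, Gtf2h4, Ercc1, Ercc2 and Pold2, which are short and rich in GC, were 1.89 to 2.31 times as high in WT_NoUV replicate 1 as in the mean of the other 2 libraries of its group. In WT_UV replicate 2 they were 1.29 to 1.97 times as high. Over the 42 members, the ratio rose with exon GC content (Pearson r = 0.779 and 0.773, a description across genes that share these libraries). With both libraries left out, a choice made after seeing the data, the KO minus WT difference of Pold1 went from -0.85 to -0.35 without UV and from -1.09 to -0.75 after it. Pold4 went from -0.63 to -0.10 and from -0.57 to -0.17, Pold2 from -0.62 to -0.24 and from -0.59 to -0.39, Ercc2 from -0.60 to -0.22 and from -0.50 to -0.17, and Ercc1 from -0.31 to 0.07 and from -0.45 to -0.32. Pole stayed at -0.78 and -0.74, and Lig1 at -0.54 and -0.90. No member was called in either comparison without them, and the falls of Polh, Cdk7 and Pold3 after UV were called with and without them.

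**Figure D4:**
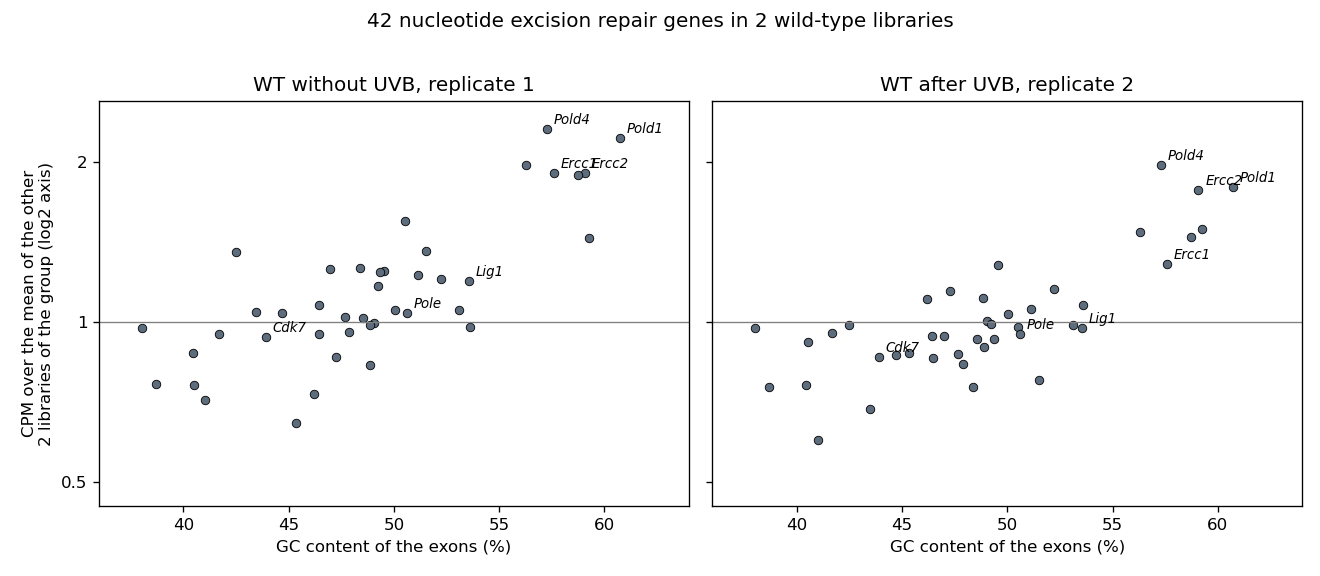
CPM of each of the 42 genes in WT_NoUV replicate 1 (left) and WT_UV replicate 2 (right) over the mean of the other 2 libraries of the group (y axis, log2 scale) against the GC content of the exons of the gene in percent (x axis). Pold4 and Pold1 lie highest in both panels, near 2, while Cdk7, Pole and Lig1 lie near 1.

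No member was called in cKO against FL either, without UV or after it, beside 0% of all genes both times. Groups did not overlap for Cul4b alone without UV, lower in cKO (0.791% of all genes lower, 1.4% higher), and for Xpc alone after UV, higher in cKO (1.38% higher, 1.34% lower). At an unadjusted p under 0.05 there was 1 member without UV and 3 after it, beside 4.71% and 5.3% of all genes, and DESeq2 called none. The smallest p values without UV belonged to Cul4b, at the FL levels above and 67.4, 56.8, 62.9 and 61.4 CPM in cKO_NoUV (-0.24 ± 0.11, adjusted p = 0.923, edgeR), and to Rfc2. Rfc2 was at 18.1, 25.5, 19.8 and 25.3 CPM in FL_NoUV and 20.8, 14.1, 16.1 and 13 CPM in cKO_NoUV (-0.47 ± 0.24, adjusted p = 0.923). After UV they belonged to Rfc3, at 17.2, 8.80, 9.75 and 16.9 CPM in FL_UV and 11.4, 6.29, 5.76 and 6.16 CPM in cKO_UV (-0.83 ± 0.28, adjusted p = 0.865), and to Rfc5, at 15.9, 9.31, 10.6 and 18.1 CPM against 13.6, 6.93, 6.17 and 5.06 CPM (-0.76 ± 0.31, adjusted p = 0.865). Rfc2, Rfc3 and Rfc5 overlapped between genotypes, with 1 high cKO library each time. All 10 gap-filling genes were below 0 without UV and after it, with medians of -0.40 and -0.55. In the same comparisons all 22 proliferation markers were below 0 (medians -0.74 and -0.82) and all 10 skeletal muscle genes above 0 (medians 0.92 and 0.93), and their part in the result was not tested.

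The spread within the keratinocyte groups was wide for these genes. Pole ran at 53.2, 27.3, 29.3 and 13.6 CPM in cKO_NoUV and at 51.5, 19.6, 22.8 and 10.3 CPM in cKO_UV, beside 61.6, 58.7, 32.3 and 55.3 CPM in FL_NoUV and 54.6, 32.8, 31.1 and 63.8 CPM in FL_UV. The summed proliferation markers of the same libraries were 1710, 795, 1326 and 405 CPM in cKO_NoUV and 1145, 548, 759 and 219.6 CPM in cKO_UV. Within these groups, high and low libraries of Pole are thus largely those of the markers, while Ercc6 and most recognition genes vary less. The whole-body experiment differed after UV. There Pole lay higher (log2 fold change 0.41 in WT and 0.50 in KO, neither called), while the summed markers lay lower. Their medians went from 1171 to 898 CPM in WT and from 712 to 555 CPM in KO. Genes of the growing hair follicle ranged in sum from 52.0 to 10716 CPM within cKO_NoUV alone, and their part in the repair gene levels was not tested.

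**Figure D5:**
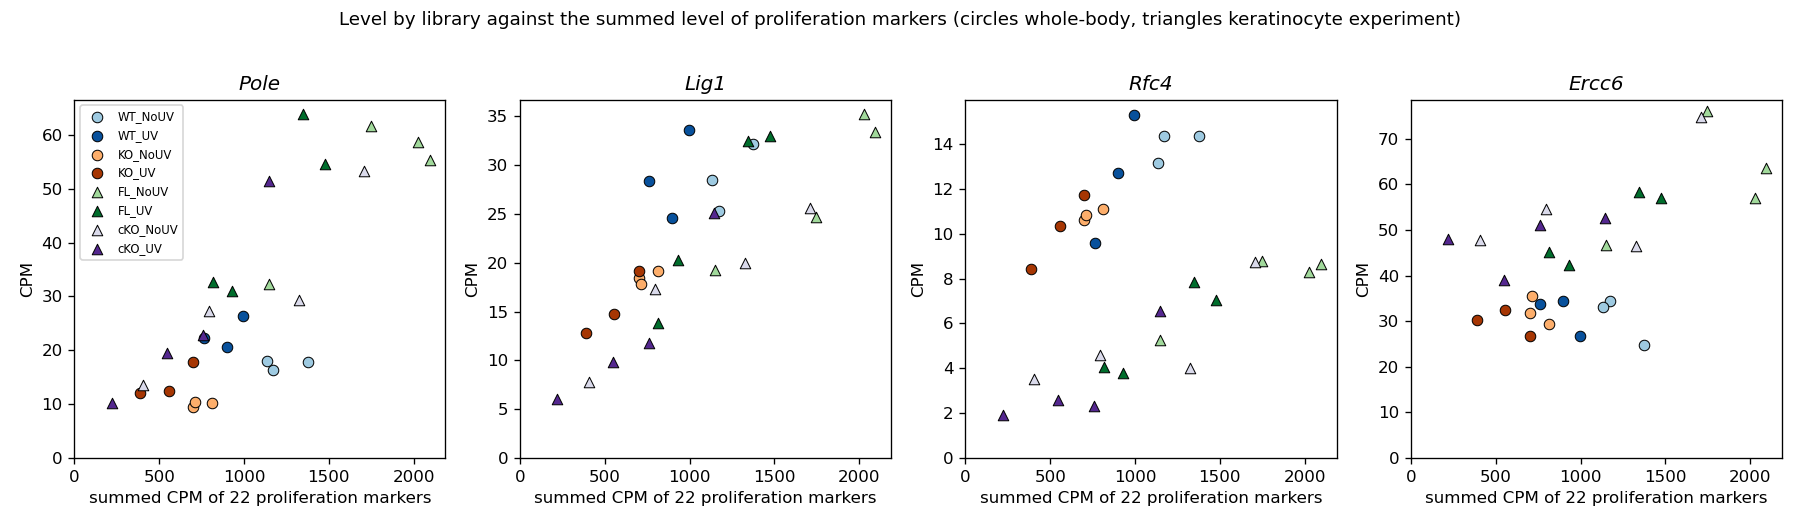
Level of Pole, Lig1, Rfc4 and Ercc6 in CPM (y axis, from 0) in each of the 28 libraries against the summed CPM of 22 proliferation markers (x axis), coloured by group, with circles for the whole-body and triangles for the keratinocyte experiment. Over all libraries of each experiment, Lig1 and Rfc4 run higher where the markers run higher, although Lig1 shows no clear course with them within WT. KO points lie to the left of WT points of the same treatment, and lower than these for Pole and Lig1. Ercc6 shows a flatter course in the whole-body experiment. Pole largely runs with the markers in the keratinocyte experiment, but in WT and KO it lies higher after UV, where the markers run lower.

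Several members share exon bases with a neighbour, and the strand setting of the counting is not given in the sources used here. The shared part was 25.1% of the exon bases of Lig3 (with Rffl), 24.6% for Ercc2 with Gm26852 and 17.8% with Klc3, 24.6% for Pold4 (with AC109138.7), 15.1% for Rfc2 (with Lat2), 12.7% for Rfc4 (with Eif4a2) and 10.7% for Rfc5 (with Wsb2). Values of these genes, and of Ddb2 above, are uncertain to that extent.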

How the data were processed

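RNA of 28 skin samples was sequenced as ribosome-depleted, stranded libraries, per the labels' protocols. The authors deposited raw read counts per gene in 2 tables, made with cutadapt 4.6, HISAT2 2.1.0 and featureCounts on GRCm38, per the submitters' processing notes. Gene positions of the keratinocyte table differ from those of the whole-body table, so only the latter are printed. Counts were fitted per experiment with edgeR 4.0.16 (R 4.3.3, limma 3.58.1), using filterByExpr, TMM scaling, 1 coefficient per group and robust quasi-likelihood tests. P-values were adjusted by Benjamini-Hochberg over all genes tested, at a threshold of 0.05. A prior count of 3 was set only for the log2 CPM of the gene lists. The joint fit used the 51976 genes in both tables. Levels are CPM and RPKM after TMM scaling. Scripts were tested on simulated data.

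Per-library values are given for members called in any comparison, for Xpc, Ddb1, Ddb2, Xpa, Ercc6 and Polh, and for the 2 smallest p where none was called. Companion lists are given by counts. Members and lists were chosen with earlier results of these data known. Alternatives were DESeq2 1.42.0, RLE scaling, no filter, only the 2 groups compared, a replicate block, a hair follicle covariate and leaving out libraries. No libraries were duplicates (chi-square per degree of freedom 42.5 to 343 over 36 pairs). Deviations of same-numbered libraries correlated above 0.1 in every pair of KO_NoUV with KO_UV (0.222 to 0.317) and of cKO_NoUV with cKO_UV (0.24 to 0.611), so the replicate numbers were taken to pair these groups, and the blocked value stands beside their results where it changes a call. This check was applied to each comparison after the blocked fits had been seen. The pairing comes from it alone, since the labels name no shared litter or day for a number. The other groups compared did not meet it. The block fitted a term per replicate number over all groups of an experiment, so it also tied groups that did not meet the check. For replicate 4, FL_NoUV with cKO_NoUV correlated at -0.338. Blocked p-values are therefore not those of a fit that pairs KO_NoUV with KO_UV, or cKO_NoUV with cKO_UV, alone.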

Additional observations from a re-analysis of the deposited data

Results flagged for a closer look

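In 6 of 168 groups of 4 libraries, 1 library stood far from the other 3 by Dixon's criterion, which chance meets in about 1 group in 20. Rfc4 was low in FL_NoUV replicate 3 (5.25 CPM, nearest library 8.29) and high in cKO_UV replicate 1 (6.54 CPM, nearest 2.6). Rfc3 was high in the same cKO_UV library (11.4 CPM, nearest 6.29). Both encode clamp-loader subunits. Ercc2 was high in cKO_NoUV replicate 1 (22.3 CPM, nearest 18.3), Gtf2h2 low in FL_NoUV replicate 3 (10.9 CPM, nearest 14.7) and Rbx1 high in cKO_UV replicate 3 (45.5 CPM, nearest 42.7).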

How the results depend on the processing

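Counts of called members moved by more than 1.5 times under these settings. Without the filter on low counts they were 3 in WT, 5 in KO, 0 in FL and 0 in cKO after UV, and 1 (Lig1) in KO against WT after UV. DESeq2 called 9 in WT after UV, and 3 and 2 in KO against WT without and after UV. Fits of only the 2 groups compared called 2 in WT, 14 in KO, 0 in FL and 1 in cKO after UV. RLE scaling left 1 in FL. Leaving out WT_NoUV replicate 1 and WT_UV replicate 2 together, chosen after seeing the data, gave 14 in KO after UV. Beyond the main calls in KO, both settings with 14 called Cul4b, Ercc4, Pole, Rfc3 and Rpa2. Apart from the WT count at the end of this section, the number of all genes called under each alternative is not given. These member counts were thus not set against a share of all genes. With 1 library left out at a time, the counts ran from 3 to 5 in WT, 3 to 10 in KO, 1 to 3 in FL and 0 to 4 in cKO after UV, and from 0 to 1 in KO against WT after UV. With the replicate number as a block, 4 members were called in cKO after UV. Over all pairs of groups, same-numbered libraries correlated above 0.1 in 11 of 18 whole-body and 13 of 24 keratinocyte pairs. Where the numbers share only a name, the block brought Uvssa in WT past the threshold (adjusted p = 0.0216) and ended the WT call of Ddb2 (adjusted p = 0.0626), and beyond these and the calls given in the report it changed no other member call. Of the single members' calls, 276 alternatives kept the call, 100 lost it and none reversed it. Over all genes, the WT count after UV was 3817, and 1288 with only the 2 groups, and the causes were not tested. Depth limits the 7.12 M and 7.51 M libraries most.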
